A study of Mus musculus with 7 samples.

Results

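B-lineage cells were present among the bone marrow cells of the second run of a single-cell RNA-sequencing study of mouse neutrophils. They were chosen on measured counts. A cell was kept when Cd79a, Cd79b, Vpreb3, Ebf1 and Ms4a1 together had at least 4 unique molecular identifiers (UMIs, each standing for 1 captured transcript) and when S100a8 with S100a9, abundant calcium-binding protein genes of neutrophils, held under 5% of the cell's UMIs. This gave 268 of 3823 bone marrow cells (7.01%, 95% exact binomial interval 6.22 to 7.87), out of 16907 cells in the 6 healthy libraries. The same rule picked 1408 of 4353 cells from the spleen of that run and 82 of 4653 from its blood.

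The study compared neutrophils of healthy tissues, and the labels describe each library as live, propidium iodide-negative cells sorted for CD11b and Ly6G from untreated male C57BL/6J mice. By the study's methods each library of run 2 pooled 3 mice aged 8 weeks, with all 3 tissues taken from the same animals, and the mice of run 1 were 6 weeks old. Bone marrow and spleen therefore give 1 library each, so no test between tissues was possible and no p-value is given. Intervals are 95% and cover counting error only, not the spread between mice. The sort was for neutrophils, so the share of B-lineage cells is that of the sorted and captured cells and not of the tissue. Before its own analysis the study assigned cells to reference immune populations and discarded those that matched no granulocyte class. The counts used here hold the cells from before that step. Which of the B-lineage cells were discarded there was not tested.

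B lymphocytes are made in the bone marrow. A pro-B cell rearranges its immunoglobulin heavy chain genes with the RAG1 and RAG2 recombinase while terminal deoxynucleotidyl transferase (Dntt) adds bases at the joints. The new heavy chain is first tested in a pre-B-cell receptor with a surrogate light chain, encoded by Vpreb1, Vpreb2 and Igll1, and large pre-B cells then divide. Small pre-B cells rearrange a kappa or lambda light chain, and immature B cells that carry IgM leave for the spleen, where IgD, CD23 and CD21 mark mature cells.

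The selected bone marrow cells had a median of 1509 UMIs (1059 to 8252) and the spleen cells one of 1440 (617 to 17964), and their sums were 503334 and 2453589 UMIs. The summed rule genes had a median of 20.5 UMIs per bone marrow cell and 12 per spleen cell. At the threshold were 3 bone marrow cells at exactly 4 UMIs, which held 9.67 UMIs of 17 other B-cell identity genes per cell, and 2 excluded cells at 3, which held 13. In spleen 34 kept cells were at exactly 4 UMIs and 219 at 5 to 7, and 20 excluded cells were at 3. On the other criterion, 1 kept cell had between 4% and 5% of UMIs from the S100 genes, 16 excluded cells had 5% to 20% and 17 had more. No bone marrow and spleen B-lineage cells shared a barcode, whereas the whole libraries shared 27, and 5 of the 268 barcodes recurred in some other healthy library.

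Genes that define B cells and that the rule did not use were present. Pax5, the factor that commits cells to the lineage, had a UMI in 24.3% of the bone marrow cells, and the adaptor gene Blnk in 34.0%. The genes of the sorted proteins were rare. Itgam, which encodes CD11b, had a UMI in 1.49% of the cells and Ly6g in 5.22%, against 47.7% and 72.1% of the 3355 bone marrow cells in which S100a8 and S100a9 held 20% or more of UMIs (called S100-rich below, median 2143 UMIs). Other neutrophil transcripts were widespread. Across the 16 listed neutrophil genes they made up 1.39% of all UMIs in the bone marrow B-lineage cells and 0.462% in those of spleen, and S100a8 was seen in 100% and 79.8% of cells. Of the 10 T-cell genes only Lat was detected in the bone marrow cells, with 3 UMIs, and all of Cd3d, Cd3e, Cd3g and Trac were at 0 UMIs. The spleen B-lineage cells held 310 UMIs of the 10 genes, in 123 of 1408 cells, 16 of them with 3 or more. Natural killer cell genes, 6 in all, had 57 UMIs in spleen and 1 in bone marrow. Transcripts of these other cell types were thus more frequent in the spleen group.

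Promoter sequences are shown for the surrogate light chain genes because their transcripts separated the tissues most. Vpreb1 lies on chromosome 16 at 16868403 to 16870843 and Igll1 at 16860671 to 16863985, both on the minus strand and 4417 bases apart, while Vpreb2 lies at 17980428 to 17981273 on the plus strand (GRCm38, GENCODE M21). The windows run from 250 bases before to 50 bases after the RefSeq start (GRCm38.p6) and are written 5′ to 3′ on the gene's strand. Capitals mark the E-box CAGGTG or its reverse complement CACCTG, a sequence bound by E2A, the product of Tcf3.
Vpreb1, chr16:16869206-16869505, minus strand: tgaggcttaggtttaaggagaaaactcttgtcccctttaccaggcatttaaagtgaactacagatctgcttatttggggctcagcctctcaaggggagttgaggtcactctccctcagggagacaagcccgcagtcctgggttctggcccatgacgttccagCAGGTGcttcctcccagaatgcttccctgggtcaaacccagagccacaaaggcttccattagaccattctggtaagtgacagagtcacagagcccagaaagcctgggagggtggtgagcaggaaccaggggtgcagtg
Vpreb2, chr16:17980315-17980614, plus strand: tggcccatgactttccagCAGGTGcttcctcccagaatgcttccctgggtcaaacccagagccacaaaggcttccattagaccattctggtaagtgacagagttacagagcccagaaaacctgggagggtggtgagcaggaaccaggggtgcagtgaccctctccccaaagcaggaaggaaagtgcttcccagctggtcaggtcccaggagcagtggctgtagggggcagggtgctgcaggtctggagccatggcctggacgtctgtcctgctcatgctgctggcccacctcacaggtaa
Igll1, chr16:16863936-16864235, minus strand: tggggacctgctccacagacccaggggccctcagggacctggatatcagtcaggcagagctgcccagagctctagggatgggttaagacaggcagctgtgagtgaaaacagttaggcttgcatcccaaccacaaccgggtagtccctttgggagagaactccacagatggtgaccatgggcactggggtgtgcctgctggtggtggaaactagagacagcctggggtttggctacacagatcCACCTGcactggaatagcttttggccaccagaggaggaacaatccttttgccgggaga

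The letters CAGGTG or their reverse complement occurred in 4 of 7 windows of the early B-cell genes (Vpreb1, Vpreb2, Igll1 and Rag1, not Rag2, Dntt or Il7r) and in 20.2% of all 32851 windows. They also occurred in 2 of 4 windows of late genes (1 each of Cr2 and Fcer2a) and in 1 of 4 windows of the rule genes (Cd79a), so the motif does not set the early genes apart. A second motif searched, the EBF1 core CCCNNGGG, which reads the same on both strands, was found in 1 of the 7 (Igll1) and in 13.7% of all windows. The Vpreb1 and Vpreb2 windows aligned over 156 bases with 98.1% identity, so their E-box is 1 sequence in duplicated genes, 88 bases before the annotated start of Vpreb1 and 232 before that of Vpreb2. Matches of this kind describe letters and not bound sites. The longest transcripts of both genes were 97.5% identical over 686 aligned bases, so reads can be assigned to one or the other with uncertainty, and their counts are best read as a sum.

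**Figure D1:**
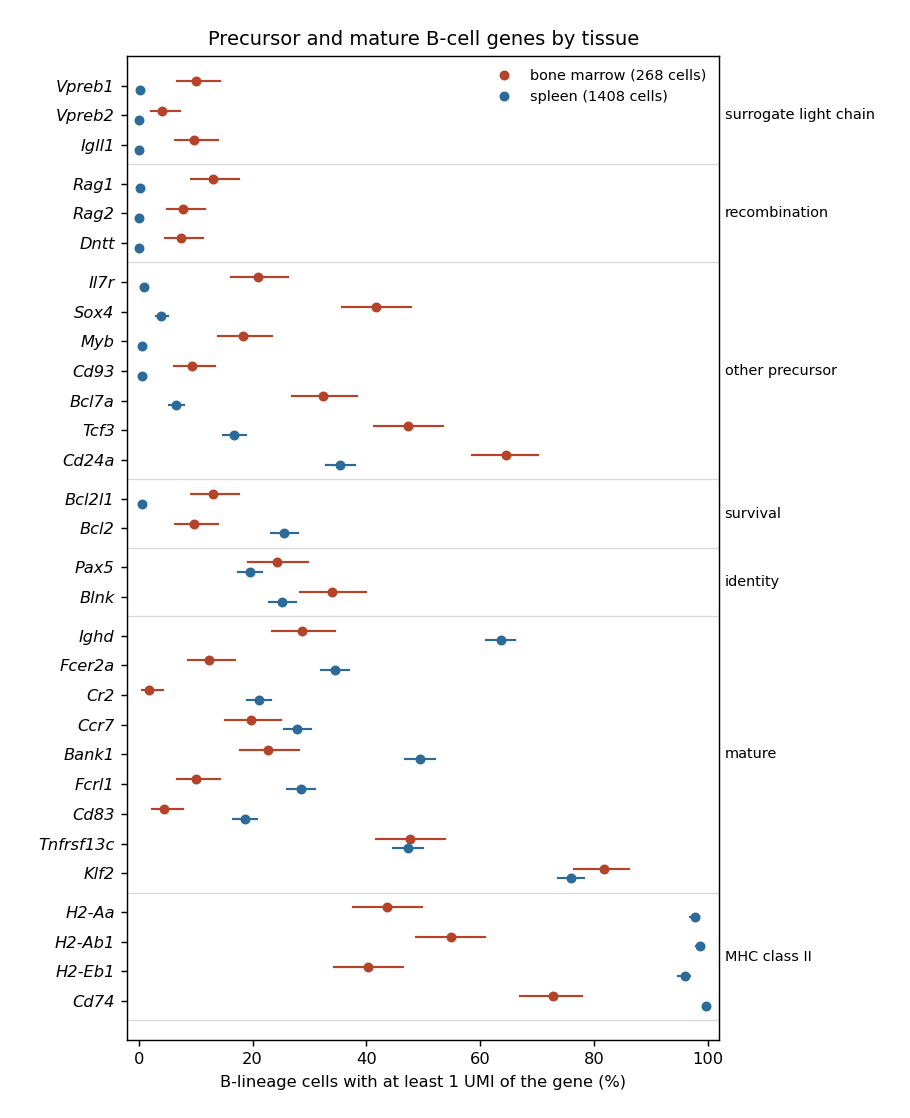
Share of B-lineage cells with at least 1 UMI of each gene (x axis, percent) in bone marrow (red, 268 cells) and spleen (blue, 1408 cells) of run 2. Points are shares and lines exact 95% binomial intervals. Surrogate light chain and recombination genes sit at or near 0 in spleen and between 4.10% and 13.1% in bone marrow, while H2-Aa reaches 43.7% of bone marrow and 97.8% of spleen cells.

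Surrogate light chain transcripts were found in bone marrow and almost not at all in spleen. Vpreb1 had 228 UMIs in bone marrow and 2 in spleen, Igll1 231 and 0, and Vpreb2 20 and 0. Levels are given as CPM, UMIs per 1000000 UMIs of the group, and no correction for length was made. At 453 CPM against 0.815, Vpreb1 was 556 times higher in bone marrow (152 to 4616). With a floor of 3 UMIs for the spleen sum, Igll1 was at least 375-fold higher. A UMI of Vpreb1 was found in 10.1% of the bone marrow cells (6.74 to 14.3) and 0.142% of spleen cells, and in 0.209% of S100-rich bone marrow cells, which were more deeply counted. Igll1 in 0 of 1408 spleen cells allows a share of up to 0.213%.

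The 29 bone marrow cells with any surrogate light chain UMI were not evenly labelled. 5 had a single UMI and the other 24 had 2 to 50, with a median of 20. Vpreb1 was found in 93.1% of the 29 and Igll1 in 89.7%, so both chains were seen together in most of them.

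Recombination genes followed the same division. Rag1 had 43 UMIs in bone marrow and 4 in spleen and was seen in 13.1% and 0.142% of cells. Rag2 had 28 and 0 UMIs, and Dntt 90 and 0, which put Dntt at least 146-fold higher in bone marrow. Their cells overlapped in part with the surrogate light chain cells. Of 20 cells with Dntt, 18 also had a surrogate light chain UMI, whereas of 48 cells with Rag1 or Rag2 only 12 did. Rag1 was detected in 46.9% of the 64 cells that had an early gene but no surrogate light chain UMI, and in 17.2% of the 29 that had one. The subdivision was made after the counts were seen, and it favours Rag1 in the 64, which had to hold Rag1, Rag2, Dntt or Il7r to be counted, so no difference is read from these shares.

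Il7r, the receptor for the growth factor interleukin 7, had 81 UMIs in bone marrow and 13 in spleen, or 161 against 5.30 CPM, a 30.4-fold difference (16.8 to 59.5). These 7 genes together (Vpreb1, Vpreb2, Igll1, Rag1, Rag2, Dntt and Il7r, called early genes below) had at least 1 UMI in 93 of 268 bone marrow cells, 16 of 1408 spleen cells and 0 of 82 blood cells, which allows up to 3.66% in blood. With every cell thinned to 1000 UMIs, which left out 78 spleen cells and no bone marrow cell, the shares were 25.7% in bone marrow and 0.376% in spleen. Run 1 gave 6 bone marrow cells by the same rule, at a median of 5753 UMIs. Over the 4 early genes that its file lists, early UMIs were found in 4 of the 6 cells, 132 in all, and the 46 of Vpreb1 and 68 of Igll1 came from 2 cells each.

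Further transcription factors of early B cells were higher in bone marrow. Sox4, which precursor survival requires, reached 677 CPM against 27.7 in spleen and was seen in 41.8% and 3.91% of cells. Myb, a factor of dividing progenitors, was at 131 and 4.08 CPM, Tcf3, which encodes E2A, at 473 and 113, Bcl7a, a chromatin remodelling subunit, at 292 and 41.6, and Lef1 at 75.5 and 15.5. The surface marker Cd93 of immature B cells was at 63.6 and 3.67 CPM, and Cd24a at 1242 and 346. Of the stem and multipotent progenitor receptors, Kit had 1 UMI in bone marrow and 1 in spleen, and Flt3 had 0 and 5. The rule left out cells without UMIs of B-cell genes, so nothing is read from these counts.

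Of the 18 genes on this precursor list 8 had a mean level of at least 50 CPM over the 2 tissues, the minimum for the comparison across genes. All 8 were higher in bone marrow, 5 past 4-fold, with a median log2 ratio of 2.44. The genes that cleared the minimum include ones that did so through bone marrow alone, and the choice of list followed earlier results, so these counts describe and do not support. Across all 2713 genes compared, 2.95% were past 4-fold higher and 0.221% past 4-fold lower in bone marrow, 9.66% and 3.28% were past 2-fold, and the median log2 ratio was 0.26.

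**Figure D2:**
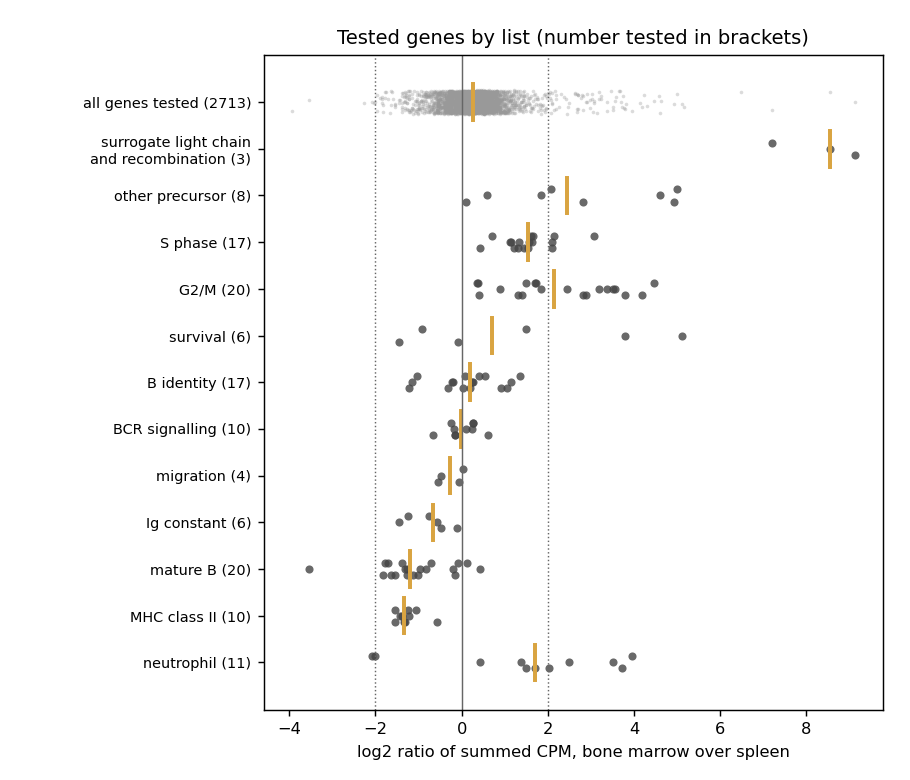
Each point is a gene with a mean of at least 50 CPM, placed by its log2 ratio of summed CPM, bone marrow over spleen B-lineage cells (x axis), and grouped by gene list (rows, number of genes in brackets). Orange bars are medians and dotted lines mark 4-fold. All 10 MHC class II pathway genes lie left of 0, beside a median of 0.26 for all 2713 genes. The 37 S and G2/M genes shown lie right of 0, but some of them passed the minimum through bone marrow alone.

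Among the 12 genes with the highest ratios that the rule did not use, 6 have been described (Vpreb1, Igll1, Dntt, Myb, Il7r and Sox4). Tifa, an adaptor that activates NF-kB signalling, was the most abundant of the others, with 448 UMIs in bone marrow and 92 in spleen, or 890 against 37.5 CPM (23.7-fold, 18.9 to 30.0). It was seen in 49.3% of bone marrow and 5.97% of spleen cells. Cplx2, a complexin of vesicle fusion, was 24.8 times higher (13.2 to 50.6), Gas7 89.4 times, Ptgr1, a prostaglandin reductase, 35.5 times, and Ube2c, which acts in mitosis, 22.2 times. Bcl2l1, which encodes the survival protein BCL-XL, had 50 UMIs against 7 and was 34.8 times higher (15.7 to 91.0).

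Of the 80 genes past 4-fold higher, 8 were on the surrogate light chain, recombination and precursor lists and 14 on the S and G2/M lists. A further 5 (Camp, Ltf, Ngp, Lcn2 and Retnlg) were on the neutrophil list. 9 of the 80, with Lyz2, Chil3 and Mgst1 among them, had a higher CPM in the S100-rich cells of the same library than in the B-lineage cells, and the part of neutrophil RNA in these differences was not tested. Camp was at 896 CPM in the bone marrow and 58.3 in the spleen B-lineage cells and was seen in 75.7% and 8.95% of them.

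Genes of mature B cells were lower in bone marrow. Ighd, the constant region of IgD, had 130 UMIs in 28.7% of bone marrow cells and 1741 UMIs in 63.7% of spleen cells, or 258 against 710 CPM. Fcer2a, which encodes CD23, was at 89.4 and 259 CPM, and Cr2, which encodes the complement receptor CD21, at 13.9 and 161. Cr2 was detected in 1.87% of bone marrow and 21.1% of spleen cells, 11.6-fold higher by CPM in spleen (5.58 to 29.1). The signalling adaptor Bank1 was at 169 and 417 CPM, Fcrl1 at 55.6 and 198, the activation marker Cd83 at 43.7 and 149, and the follicle-homing receptor Cxcr5 at 29.8 and 92.9.

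In all, 18 of 20 mature genes were lower in bone marrow, 12 of them past 2-fold and 1, Cr2, past 4-fold. Of all 2713 genes compared, 3.28% were past 2-fold and 0.221% past 4-fold lower. The median log2 ratio of the 20 was -1.20, against 0.26 for all genes. The 2 of the 20 that were higher had intervals that include 1. Tnfrsf13c, the receptor for the survival factor BAFF, was at 461 and 424 CPM (ratio interval 0.938 to 1.25), and Traf5, a signalling adaptor, at 95.4 and 70.5 (0.961 to 1.87). Among the 18, the gap was small for some. Klf2, which holds B cells in a resting, recirculating state, was at 1339 and 1429 CPM (0.862 to 1.02), and Cd38 at 131 and 150 (0.664 to 1.14). Intervals that include 1 do not show equal levels.

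Among the 12 genes with the lowest ratios, Ly6a, which encodes Sca-1, was at 81.5 and 316 CPM, the GTPase genes Gimap3 and Gimap7 at 47.7 and 172 and at 39.7 and 142, Trim7 at 17.9 and 86.4, Pxdc1 at 31.8 and 118, and Apoe at 87.4 and 315. Csf3r, Hcst, Il1b and Wfdc17 also were among the 12, and all 4 had a higher CPM in S100-rich bone marrow cells (207 to 453) than in either group of B-lineage cells. Jchain, which joins IgM and IgA into polymers, had the lowest ratio, at 155 and 2371 CPM.

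MHC class II genes, which present antigen to T cells, were lower in bone marrow. Cd74, the invariant chain, was found in 72.8% of bone marrow and 99.8% of spleen cells and H2-Aa in 43.7% and 97.8%. Free RNA was not corrected, so a single UMI need not be the cell's own transcript. The difference is read from levels and not from these shares of cells. By level, H2-Aa was at 1572 CPM against 4553, H2-Ab1 at 2003 against 5260 and H2-Eb1 at 1025 against 2979. All 10 genes of the pathway list were lower in bone marrow, 9 past 2-fold and none past 4-fold. Of all 2713 genes compared, 3.28% were past 2-fold lower. The median log2 ratio of the 10 was -1.33, against 0.26 for all genes. The smallest difference was that of Ciita, the class II transactivator, at 45.7 and 67.7 CPM with a ratio interval of 0.417 to 1.05. Together they made up 1.71% of bone marrow and 4.41% of spleen UMIs.

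Taken cell by cell, the bone marrow cells fell into a low and a high range of class II level. In bone marrow 127 of the 268 cells had under 0.5% of UMIs from the class II list and 88 had 3% or more, with 53 between. In spleen 8 of 1408 were under 0.5% and 1235 were at 3% or above. These limits were set after the distribution had been seen.

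**Figure D3:**
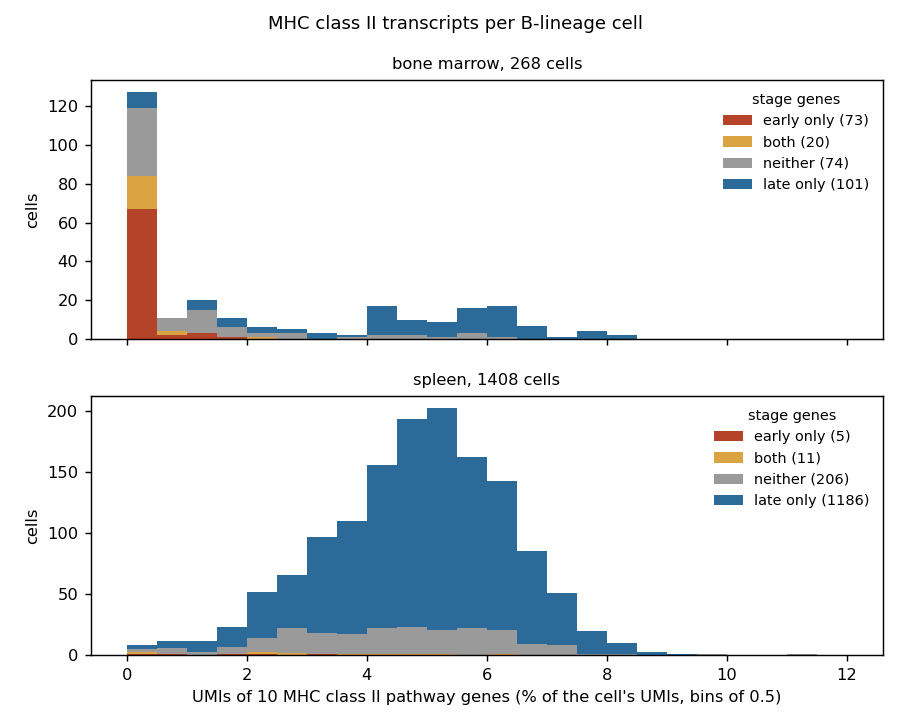
Number of B-lineage cells (y axis) by the percent of the cell's UMIs from 10 MHC class II pathway genes (x axis, bins of 0.5) in bone marrow (top) and spleen (bottom), coloured by stage genes: early only (red), both (orange), neither (grey) and late only (blue). Bone marrow has 127 cells in the first bin and a separate group above 4%, whereas spleen forms 1 broad peak around 5%.

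The cells were divided by whether they had a UMI of the early genes or of 4 late genes (Ighd, Fcer2a, Cr2 and Ccr7). In bone marrow 73 cells (27.2%, 22 to 33) had early genes only, 101 (37.7%, 31.9 to 43.8) late genes only, 20 both and 74 neither. Of the spleen cells 5 had early genes only and 1186 (84.2%) late only, with 11 both and 206 neither. Of the 16 spleen cells with an early gene 12 had Il7r, 2 had Rag1 or Rag2 and 2 had a surrogate light chain UMI. Among the 5 early-only spleen cells, 1 held 507 Jchain UMIs. An early gene in a spleen cell therefore need not mark a precursor. The class II genes took no part in this division. None of the 73 early-only and 20 double-positive cells had 3% or more of class II UMIs, and 78 of the 101 late-only cells did. The medians were 0.0804% in early-only, 0.0459% in double-positive, 0.580% in the cells with neither and 5.09% in late-only cells. The late gene of the double-positive cells was Ighd in 10 and Ccr7 in 10 of the 20, Fcer2a in 1 and Cr2 in none.

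Genes that took no part in the division also differed between its classes. Bcl2, the survival gene, had 0 UMIs in the 93 cells with an early gene, which allows a share of up to 3.23% of cells with a UMI and does not show that the gene was off, and it was seen in 20.8% of late-only cells (13.4 to 30.0). Bcl2l1 went the other way, with 22.6% of cells that had an early gene (14.6 to 32.4) and 2.97% of late-only cells. Both were singled out after their values were seen, and the survival list as a whole went both ways between the tissues, with 3 of its 6 compared genes higher and 3 lower in bone marrow and a median log2 ratio of 0.70. Ms4a1, which encodes CD20 and helped to choose the cells, is given as a description, with no UMI in the 29 surrogate light chain cells (up to 10.3%) and a UMI in 81.2% of late-only cells. Across all cells Bcl2 was at 69.5 CPM in bone marrow and 190 in spleen. Tifa was at 1407 CPM in early-only and 165 in late-only cells, and Sox4 at 942 and 270.

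The 10 genes highest in late-only over early-only bone marrow cells were H2-Eb1, Bank1, H2-Oa, Ctsh, Ighd, Apoe, H2-Aa, H2-DMb2, Cd74 and Gm43603. H2-Eb1 had 445 UMIs in late-only and 1 in early-only cells, and Cd74 had 4354 and 149, or 28680 against 826 CPM. Ctsh, which encodes the lysosomal protease cathepsin H, had 43 and 1. Ighd defined the classes and is listed for completeness.

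Immunoglobulin chains differed along the same axis. Ighm, the IgM heavy chain, was seen in 97% of bone marrow and 96.2% of spleen cells, at 4627 and 6406 CPM. Igkc, the kappa light chain, was at 10172 CPM in bone marrow and 24208 in spleen. The spleen sum leaned on few cells, since 1 cell held 10428 of its 59397 UMIs, and the medians were 11 UMIs per bone marrow cell and 19 per spleen cell. In late-only cells the 6 constant region genes together had a ratio of 0.951 (0.919 to 0.983). No kappa or lambda UMI was found in 18 of the 268 bone marrow cells and in none of the 1408 spleen cells (up to 0.213%). All 18 had an early gene, 17 of them a surrogate light chain UMI. Thinned to 1000 UMIs, 10.8% of bone marrow and 0.226% of spleen cells lacked a light chain UMI. The background differed between the libraries, since Igkc had a UMI in 40.3% of the S100-rich cells of spleen (median 853 UMIs) and 5.90% of those of bone marrow (median 2143). A single light chain UMI in a spleen cell need not be its own transcript, so no tissue difference is read from these shares of cells. Iglc2 and Iglc3, whose longest transcripts are 95.3% identical, were at 1434 and 1051 CPM in bone marrow and 2126 and 1773 in spleen, and reads may be split between them with uncertainty.

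Mzb1, a chaperone of immunoglobulin assembly in the endoplasmic reticulum, was seen in 96.6% of the 29 surrogate light chain cells and 52.5% of late-only cells, at 1328 and 566 CPM. Lef1 was at 271 CPM in the 29, at 58.5 in the 64 other cells with an early gene and at 6.59 in late-only cells. Erg had 9 UMIs, 1 and 0 in the same 3 groups, and Ly6d was at 224, 2240 and 3452 CPM.

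Cell cycle genes were higher in bone marrow as a sum. The S and G2/M lists, 96 genes in all, made up 1.06% of UMIs in bone marrow (1.03 to 1.08) and 0.296% in spleen (0.289 to 0.303). Of the 96, 37 reached the mean of 50 CPM, some through bone marrow alone, so that their direction is set in part by this minimum. As a description, all 37 were higher in bone marrow, 14 past 4-fold, and the medians of the log2 ratios were 1.55 for S and 2.14 for G2/M genes. Of all 2713 genes compared, 2.95% were past 4-fold higher, and the median log2 ratio was 0.26. Top2a, the topoisomerase of replicating chromosomes, had 159 UMIs in bone marrow and 66 in spleen (316 against 26.9 CPM), Mki67, the proliferation marker, 66 and 31 (131 against 12.6), and Rrm2, the ribonucleotide reductase subunit of S phase, 108 and 63 (215 against 25.7). Hmgb2, a chromatin protein, was the most abundant with 1177 and 782 UMIs, and was also at 2052 CPM in S100-rich bone marrow cells.

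This difference rested on a minority of large cells. The median bone marrow cell had 0.251% of UMIs from the 96 genes and the median spleen cell 0.218%, while 28 bone marrow cells had 2% or more, up to 5.24%, against 6 spleen cells. With all cells given equal weight the means were 0.628% and 0.257%. A cell was called cycling at 5 or more UMIs of these genes and at least 0.5% of its UMIs, which held for 55 bone marrow cells (20.5%, 15.8 to 25.9) and 85 spleen cells (6.04%, 4.85 to 7.41). Of the 55 bone marrow cells 22 lay between 0.5% and 1%, and of the 85 spleen cells 66 did, so the limit cuts through a range. At 1% or more, a limit added after the counts were seen, 33 bone marrow cells (12.3%) and 19 spleen cells (1.35%) remained. Cycling bone marrow cells had a median of 3055 UMIs and the others 1423.

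Cycling was most frequent in cells with early genes. In bone marrow 31 of 73 early-only cells (42.5%, 31.0 to 54.6) were cycling, 6 of 20 double-positive cells, 10 of 74 with neither and 8 of 101 late-only cells (7.92%, 3.48 to 15). At the 1% limit 21 early-only and 1 late-only cell were left. Among the 29 surrogate light chain cells 17 (58.6%, 38.9 to 76.5) were cycling, and among the 64 other cells with an early gene 20 (31.3%, 20.2 to 44.1). These intervals overlap, the former cells were deeper (median 2910 against 1593 UMIs), and the summed cycle shares were 1.87% and 1.62%. In thinned cells 13 of 24 and 15 of 45 had 5 or more cycle UMIs, so no difference is read from this split. None of the 33 cells at the 1% limit had 3% or more of class II UMIs. In thinned cells 26 of 63 early-only (41.3%, 29 to 54.4) and 15 of 91 late-only cells (16.5%, 9.53 to 25.7) had 5 or more cycle UMIs of 1000. The 85 cycling cells of spleen had a median of 4.19% class II UMIs, against 0.116% in the 55 of bone marrow. At the 1% limit the medians were 2.77% in 19 spleen and 0.0635% in 33 bone marrow cells. None of the 85 had an early gene, where 1.14% of all spleen cells had one.

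**Figure D4:**
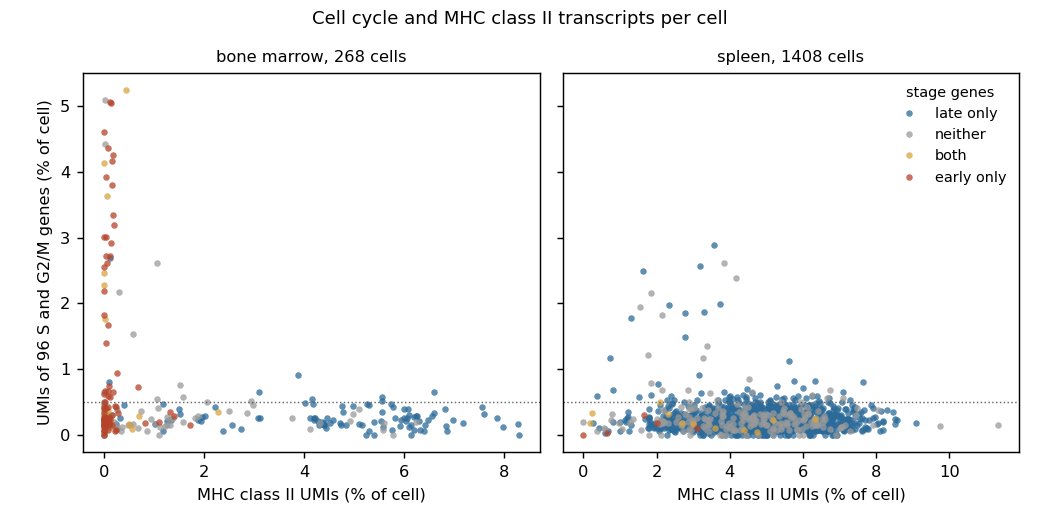
Percent of a cell's UMIs from 96 S and G2/M genes (y axis) against that from 10 MHC class II pathway genes (x axis) for each B-lineage cell of bone marrow (left, 268 cells) and spleen (right, 1408 cells), coloured by stage genes. The dotted line is the 0.5% limit. Bone marrow cells above 1% on the y axis lie at class II shares of 1.07% or less, while the 19 such spleen cells have a median of 2.77%.

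The 10 genes highest in cycling over other bone marrow cells were 2810417H13Rik, Top2a, Nusap1, Ccnb2, Ccna2, Cdca3, Cdk1, Hist1h2ap, Tyms and Birc5, all but 3 of which are on the lists that defined the class. Of these 3, Ccna2, the cyclin of S and G2 phase, had 51 UMIs in cycling and 1 in other cells. Hist1h2ap, a replication-dependent histone, had 70 UMIs in the 55 cycling and 2 in the 213 other cells, and 2810417H13Rik, which encodes a partner of the replication clamp PCNA, had 251 and 1. The latter was also high in early-only over late-only cells, with 183 and 2 UMIs, as was Ezh2, the histone methyltransferase needed for heavy chain rearrangement, with 77 and 2. Atp1b3, Fen1, Lef1, Top2a, Nusap1, Hist1h2ap, Vpreb1 and Igll1 made up the rest of the 10 highest in that comparison, and the last 2 helped to define the classes.

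Set against late-only spleen cells, the 101 late-only bone marrow cells were closer than the whole group on some lists and further away on others. Their class II genes made up 4.39% of UMIs against 4.58% in the 1186 spleen cells (ratio 0.958, 0.935 to 0.982) and their mature genes 0.696% against 0.657% (ratio 1.06, 0.994 to 1.13). The second ratio is set in part by the selection, since every late-only cell of either tissue had to hold a UMI of Ighd, Fcer2a, Cr2 or Ccr7. Cycle genes were at 0.315% and 0.284%. The precursor gene Sox4 was still higher. It had 41 UMIs in the 101 cells and was at 270 CPM against 28.7 (9.41-fold, 6.15 to 14.3). Outside that list, Tifa was at 165 against 38.6 (4.27-fold, 2.61 to 6.77) and Atp1b1, a sodium pump subunit, at 165 against 17.8. Vpreb3, a rule gene, was at 1034 and 318 CPM. Cr2 was lower, at 46.1 against 193 (ratio 0.238, 0.0952 to 0.496), whereas Fcer2a was at 290 and 314. The genes named in this comparison of late-only cells were picked after their values were seen. Neutrophil genes were 3.67-fold higher in the late-only bone marrow cells (3.51 to 3.84), against 3.01-fold in all cells (2.92 to 3.10). Without S100a8 and S100a9, whose share the selection limits, the ratios were 4.80 (4.42 to 5.20) and 3.88 (3.67 to 4.11). Genes of marginal zone and B1 cells had a ratio of 0.599 (0.472 to 0.750) in late-only and 0.834 (0.745 to 0.931) in all cells.

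**Figure D5:**
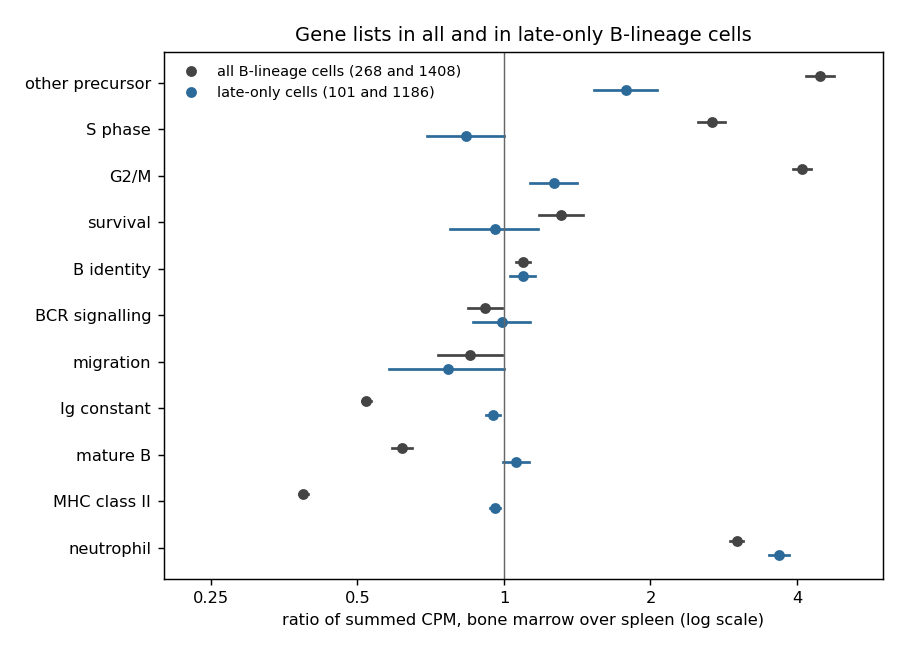
Ratio of summed CPM, bone marrow over spleen, for 11 gene lists (x axis, log scale) in all B-lineage cells (grey, 268 and 1408 cells) and in late-only cells (blue, 101 and 1186 cells). Lines are exact 95% intervals of counting error. The class II ratio is 0.387 in all cells and 0.958 in late-only cells, and the precursor ratio 4.46 and 1.78, the latter in cells chosen to have no UMI of Il7r, 1 of the 18 precursor genes.

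Genes shared by all B-cell stages went both ways. Of 17 identity genes 11 were higher and 6 lower in bone marrow, and 3 were past 2-fold in each direction, beside 9.66% and 3.28% of all genes. Their median log2 ratio was 0.19. Bach2, a repressor of plasma cell fate, was at 211 CPM against 82.7, and the coactivator gene Pou2af1 at 356 against 160. The inhibitory receptor gene Cd22 was lower, at 85.4 against 190, as was the IgM receptor gene Fcmr at 340 against 695. Of 14 B-cell receptor signalling genes 10 reached the minimum, and none was past 2-fold either way. Syk, the kinase that both receptors use, was at 195 and 127 CPM, and Ptpn6, an inhibitory phosphatase, at 300 and 473.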

How the data were processed

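For 6 healthy libraries the authors deposited tables of whole UMI counts, with a row for each gene and a column for each cell, which they had made with Cell Ranger on the mm10 assembly. Its settings are not given in the sources used here. The labels name reagent versions and a sequencer that differ from those in the study's methods. The inflammation library was not used here. From the deposited counts the cells were picked by the rule, and UMIs were summed per tissue and divided by the group's total (CPM). Genes with a mean of at least 50 CPM over both tissues were compared by ratio, and a gene was called past 4-fold. Sums of 0 were set to 3 counts for a bound. The upper limit given for a share of 0 is 3 over the number of cells, which is below the exact binomial limit. Intervals were exact Poisson, Clopper-Pearson or conditional binomial. No doublet caller was run and free RNA was not corrected, so cells with genes of several stages may include doublets. Python 3.11.15, scipy 1.17.1 and numpy 2.4.6 were used, and the scripts were tested on simulated data.

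Named genes were those of the gene lists, the 12 highest and 12 lowest by ratio without the rule genes, and the 10 highest in cycling and in late-only cells. The 10 highest in early-only cells were added after the counts were seen, as were the motifs. The members and lists were chosen with earlier results of these data known. Of 302 list entries 3 symbols (Faim3, Igj and Mlf1ip) were not listed in the file. Alternatives changed the thresholds of the rule, the limits on cells and genes, the denominator, the weight of cells and their depth.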

Additional observations from a re-analysis of the deposited data

How the results depend on the processing

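No paired analysis was possible because the comparison holds 1 library per tissue and gives no test. Of 164 values recomputed under the alternatives, 119 stayed within their counting interval or within 1.5 times the count, 45 moved and none reversed. With the S100 limit at 1% of UMIs the bone marrow cells fell to 149, the surrogate light chain and recombination genes were at 1514 CPM (1272 as reported), the mature genes at 3178 (3828), the cycle genes at 1.44% (1.06%), and 124 and 17 genes were past 4-fold higher and lower (80 and 6). With ribosomal, mitochondrial, haemoglobin, immunoglobulin and neutrophil genes left out of the total these were 1773 and 5339 CPM and 1.47%, with 14 genes lower, while in spleen the mature genes moved from 6208 to 9690 CPM and the cycle genes from 0.296% to 0.462%. Equal weight of cells gave 955 and 4642 CPM, 0.628% and 53 and 1 genes, and thinning to 1000 UMIs gave 966 and 4761 CPM and 0.616%. Cycle genes were at 1.09% under mitochondrial and UMI limits and at 0.918% without cells that had markers of other types. A mean of at least 20 CPM gave 166 and 20 genes and one of 100 gave 46 and 1. Requiring 2 stage UMIs lowered the early-only share from 27.2% to 19.4%, and the late-only share from 37.7% to 24.3% in bone marrow and from 84.2% to 61.7% in spleen. Cells without 10 or more Jchain UMIs, added after the counts were seen, moved none of these. With 1 library per tissue the spread between mice is unknown, so tissue, library and capture cannot be told apart, and genes with few UMIs were not resolved at this depth.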

Other observations

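Jchain was rare in the bone marrow B-lineage cells. It had 78 UMIs in bone marrow and 5817 in spleen, and 77 of the 78 came from 1 cell. That cell had 2514 UMIs in all, of which 660 were Igkc, 178 Ighm, 3 Mzb1 and 2 Xbp1, with none of Sdc1 or Prdm1. In spleen 11 cells had 10 or more Jchain UMIs, up to 1862 in 1 cell. Igha had 1 UMI in bone marrow and 28 in spleen, and Ighg1 had 0 and 32.

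Homing genes and those of marginal zone and B1 cells were on further lists. Of 9 migration genes 4 reached the minimum of 50 CPM and none of these 4 was past 2-fold. Cxcr4, the receptor that retains precursors in the marrow, had 26 UMIs in bone marrow and 93 in spleen, or 51.7 and 37.9 CPM, below the minimum and with a ratio interval of 0.847 to 2.12. Ccr6 was at 9.93 and 43.6 CPM (0.0725 to 0.548) and Dtx1, a Notch regulator of marginal zone cells, was at 11.9 and 65.2 CPM (0.0661 to 0.407), both under the minimum. Cd1d1 was higher in bone marrow, at 109 and 53.4 (1.47 to 2.82), and Cd9 was at 69.5 and 87.2.

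Neutrophil transcripts other than S100a8 and S100a9 made up 0.378% of UMIs in early-only, 0.524% in late-only, 0.347% in double-positive and 0.452% in the remaining bone marrow cells, and at least 1 was seen in 267 of the 268. The primary granule gene Mpo had 4 UMIs, and Elane and Ctsg had none. Haemoglobin genes were low, with 48 UMIs of Hbb-bs in bone marrow and 158 in spleen.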
